A study of Mus musculus with 6 samples.

Results

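The mitosis and kinetochore genes described here are 48 genes chosen by name: the spindle checkpoint, the kinetochore, mitotic kinesins, condensin, G2/M cyclins and their partners. They were measured in mouse tongue by 65 array probes, matched to genes through the accession of each probe, out of 21368 genes named on the array. Of the 48 genes, 44 had a probe bright enough to test (57 probes). The other 4 were Ttk, Aurkb, Cenpf and Ncapg, whose probes were not well above background on all 3 arrays of either group. Of all 48, 35 had 1 probe and 13 had several.

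Tongue RNA from 6 mice was hybridised to 1-colour Agilent arrays, 1 mouse per array. Every mouse was of the C57Bl6 background and carried the iDek transgene, with which doxycycline (DOX) can switch on the chromatin protein gene Dek, in a design the labels call both ubiquitous and squamous cell-specific. There were 3 mice without DOX and 3 mice kept on DOX for 2 weeks, so the comparison asks how tongue RNA differs with DOX. Mice without the transgene were not analysed here, so DOX and Dek induction cannot be told apart, and the labels do not give age, sex or hour of sampling. The series title speaks of a carcinogen, but no sample label names one.

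A dividing cell copies its DNA in S phase and then builds the machinery of mitosis in G2. Cyclin B with Cdk1 drives entry into mitosis, kinetochores tie chromosomes to the spindle, and the spindle checkpoint holds back the anaphase-promoting complex until all are attached. Cdc20 then activates that complex, securin and cyclin B are destroyed, separase opens cohesin and the cell divides. In the tongue, cell division takes place mainly in the basal layer of the squamous epithelium. Because whole tissue was measured, fewer cells of a type and less RNA per cell cannot be told apart.

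Many mitotic genes carry 2 promoter elements: the cell cycle genes homology region (CHR), bound by MuvB complexes with B-Myb or FoxM1, and the CCAAT box, bound by NF-Y. RefSeq promoters (GRCm38.p6, from 250 bases before the start to 50 after it) matched 39 of the 48 members, with 42 windows. Kif20a, Incenp, Cdc25c, Foxm1, Spc24, Tpx2, Ccna2, Aurkb and Smc4 were not matched. The CHR was searched for as TTTGAA and, in a second known form that reads the same on both strands, as TTCGAA. The other element was searched for by its letters CCAAT. Both strands were searched, and overlapping matches of the 2 elements were each counted. CHR letters were in 32 of the 42 windows (76.2%), against 19.2% of all 32851 windows of the same length. CCAAT was in 32 windows (76.2%), against 37.4% of all, and occurred at least 2 times in 21 of the 42 windows, against 11.7% of all. Both kinds of letters were in 29 member windows (69.0%, against 7.52% of all), and neither was in 7 (16.7%, against 50.9%). For 61 windows of other mitotic genes the shares were 60.7% for CHR letters, 65.6% for CCAAT and 42.6% for both. For 33 windows of S phase genes they were 18.2% for CHR letters and 54.5% for CCAAT. A match is a description of the letters and not a binding site.

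The promoters below belong to members whose values with and without DOX did not overlap, so that the letters can be read beside the direction of each gene. The first 4 were higher with DOX and the last 3 lower. Each line gives 180 bases, from 150 before the start to 30 after it, 5′ to 3′ on the gene's strand in GRCm38.p6. Capitals mark matches of the letters above on either strand.
Bub1, chr2:127831830-127832009, minus strand: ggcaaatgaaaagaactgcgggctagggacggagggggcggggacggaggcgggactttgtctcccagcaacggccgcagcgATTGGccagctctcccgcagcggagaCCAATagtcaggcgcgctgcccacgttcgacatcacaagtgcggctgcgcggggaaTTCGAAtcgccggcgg
Spc25, chr2:69206184-69206363, minus strand: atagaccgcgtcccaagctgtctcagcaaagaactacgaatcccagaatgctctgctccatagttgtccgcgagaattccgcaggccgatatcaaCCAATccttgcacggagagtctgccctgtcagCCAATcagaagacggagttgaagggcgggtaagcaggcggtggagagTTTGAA
Ncaph, chr2:127133925-127134104, minus strand: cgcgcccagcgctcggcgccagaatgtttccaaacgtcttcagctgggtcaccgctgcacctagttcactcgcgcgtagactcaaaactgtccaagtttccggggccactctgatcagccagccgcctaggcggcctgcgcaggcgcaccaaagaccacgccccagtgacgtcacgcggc
Smc2, chr4:52439071-52439250, plus strand: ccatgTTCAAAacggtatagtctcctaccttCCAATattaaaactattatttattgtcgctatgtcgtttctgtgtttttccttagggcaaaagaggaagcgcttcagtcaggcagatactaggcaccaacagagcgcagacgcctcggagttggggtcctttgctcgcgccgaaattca
Cdc25b, chr2:131186798-131186977, plus strand: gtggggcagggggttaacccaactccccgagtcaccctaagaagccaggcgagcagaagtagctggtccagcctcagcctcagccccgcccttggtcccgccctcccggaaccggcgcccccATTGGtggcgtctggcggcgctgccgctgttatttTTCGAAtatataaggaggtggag
Cenpa, chr5:30666736-30666915, plus strand: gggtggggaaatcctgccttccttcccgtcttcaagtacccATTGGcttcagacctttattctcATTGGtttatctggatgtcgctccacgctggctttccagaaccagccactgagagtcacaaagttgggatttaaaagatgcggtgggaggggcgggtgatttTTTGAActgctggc
Cenpe, chr3:135212413-135212592, plus strand: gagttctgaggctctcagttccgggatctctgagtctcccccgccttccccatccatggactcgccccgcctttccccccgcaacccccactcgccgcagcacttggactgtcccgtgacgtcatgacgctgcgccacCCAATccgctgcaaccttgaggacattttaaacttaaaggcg

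CHR letters stood in 3 of the 4 windows of genes that were higher with DOX (Bub1, Spc25 and Smc2) and in 2 of the 3 of genes that were lower (Cdc25b and Cenpa). Ncaph had neither kind of letters in these 180 bases, and Cenpe had a single CCAAT box. Whether the letters go with direction was not tested. These 7 genes were picked by their values, and none passed the test between the groups.

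All values below are log2 processed signals after subtraction of each array's 75th percentile, so a value of 1 is 1 doubling above that percentile. Values of different genes cannot be ranked by abundance, because each probe has its own brightness. On the 6 arrays 56.0% to 58.3% of 55681 probes exceeded background clearly, 0 spots were saturated, and the 75th percentile ranged from 245.6 to 263.8 signal units. The tongue label was borne out by its markers: all 8 basal keratinocyte, 10 suprabasal keratinocyte and 10 skeletal muscle markers were well above background on all 6 arrays. Dek, the gene to be induced, lay at 2.30, 2.10 and 2.20 without DOX and 2.41, 2.41 and 2.27 with DOX. The groups overlapped, and the log2 difference was 0.17 ± 0.11 (SE, n = 3 and 3; limma, adjusted p = 0.456). Whether its 1 probe reads the transgene is not given in the labels, so the value is no check of them.

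For the members, replicate 3 of each group stood apart from replicates 1 and 2, so values without both replicate 3 arrays are given after the role groups. None of the 44 tested members passed the test between the groups. The fit over all 30934 tested probes called 124 (0.401%) at the 5% false discovery level (limma, Benjamini-Hochberg adjusted p), 86 higher (0.278%) and 38 lower (0.123%). Those counts were between 0 and 42 higher and between 0 and 18 lower when any 1 array was left out. The smallest adjusted p of a member was 0.0965, for the condensin gene Smc2. At an unadjusted p under 0.05 there were 9 members (20.5%), beside 18.8% of all probes, which is a like share. They were Bub1, Cdk1, Cdc25b, Cenpa, Cenpe, Spc24, Spc25, Ncaph and Smc2. These p-values set the group difference against the spread between these 6 mice. Each mouse had 1 array, so spread between mice and spread between arrays cannot be told apart. An exact two-sided permutation test of 3 against 3 cannot go below 0.1.

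The direction was mixed. The mean was higher with DOX in 25 members and lower in 19, with differences from -0.84 (Cenpa) to 0.85 (Ncaph). The median difference was 0.09 (interquartile range -0.24 to 0.24), beside -0.01 (interquartile range -0.19 to 0.17) over all tested probes. Left-out arrays moved the median between -0.04 (without DOX replicate 2) and 0.23 (without DOX replicate 3). The SE of the difference, which reflects the spread between mice, was also larger for the members: its median was 0.22, against 0.15 over all. For the typical member the 95% interval, before adjustment over all probes, reached 0.53 to either side. A smaller difference in such a gene could not be told from 0 with 3 arrays a group. After adjustment larger differences did not pass either, such as that of Ncaph (0.85, limma, adjusted p = 0.128). All 3 DOX values lay on 1 side of the 3 values without DOX in 8 of 44 members (18.2%), below the background of 25.5% of probes. Of these, 5 were above (background 12.8%): Bub1, Spc24, Spc25, Ncaph and Smc2. The 3 below were Cdc25b, Cenpa and Cenpe (background 12.7%). The count above was 13 without no DOX replicate 3 (background 18.7%) and 14 without DOX replicate 3 (background 18.8%). The count below was 5 without no DOX replicate 2 (background 16.4%) and 7 without DOX replicate 2 (background 18.1%). The count above stayed at 5 without no DOX replicate 1 or 2 or DOX replicate 1 or 2 (backgrounds 16.1%, 16.9%, 15.5% and 18.0%). The count below was 4 without no DOX replicate 1 or DOX replicate 1 (backgrounds 17.1% and 16.5%) and 3 without no DOX replicate 3 or DOX replicate 3 (backgrounds 18.3% and 21.0%). With 1 array fewer the background itself was higher in every case.

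**Figure D1:**
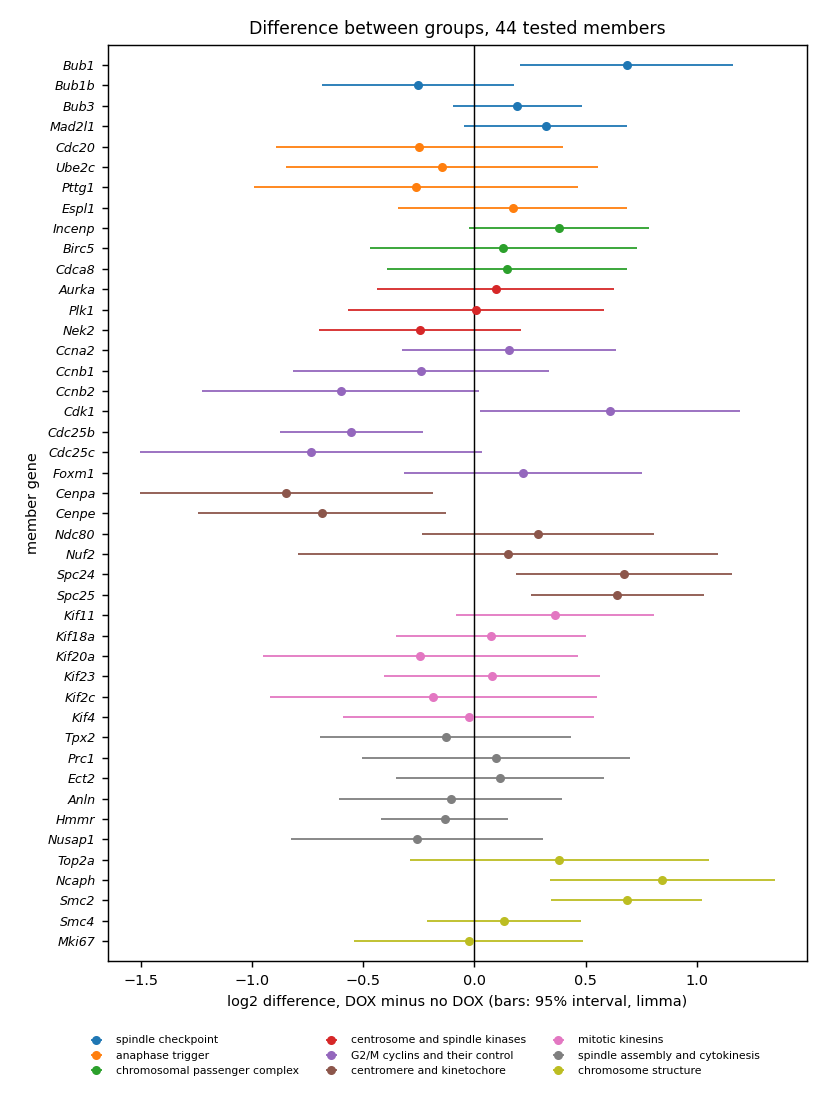
Difference in normalised log2 signal, DOX minus no DOX, for the 44 tested members, grouped and coloured by role, with limma's 95% interval as the bar. The intervals of 9 members leave out 0, 6 on the higher side and 3 on the lower, before adjustment over all probes.

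The spindle checkpoint genes encode the proteins that delay anaphase while a chromosome is unattached. The mean was higher with DOX in 3 of the 4 that were tested and lower in 1, with a median difference of 0.26. Bub1, a checkpoint kinase of the kinetochore, lay at -2.76, -3.0 and -2.40 without DOX and -1.86, -1.92 and -2.33 with DOX. All DOX arrays were above, and replicate 3 of the 2 groups came closest to each other. The difference was 0.68 ± 0.20 (SE, n = 3 and 3), a 1.61-fold higher mean, with an adjusted p of 0.158 (limma). With another background correction (normexp) the difference of Bub1 was 0.31. Bub1b, the checkpoint protein BubR1, lay at -1.26, -1.32 and -0.75 without DOX and -1.32, -1.24 and -1.53 with DOX. Its groups overlapped, with no DOX replicate 3 standing well above the other 5 arrays, and the difference was -0.25 ± 0.18. Bub3 was at 0.19 ± 0.12. Mad2l1, which binds Cdc20 to hold the checkpoint, was higher on all 3 of its tested probes, by 0.32 ± 0.15 on the brightest and 0.69 ± 0.14 on another (limma, adjusted p = 0.0921), the smallest adjusted p of any member probe. Ttk, the checkpoint kinase Mps1, was well above background on 0 arrays without DOX and 1 with DOX.

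The probe of Bub1 was printed at 10 spots. The SD of log2 signal between those spots was 0.07 to 0.17 on each array (8 spots used on no DOX replicate 3, 10 on the others). The SD between mice, each on its own array, was 0.30 without DOX and 0.25 with DOX.

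The genes of the anaphase trigger had lower means in 3 of 4 and a median difference of -0.20. Cdc20, the activator of the anaphase-promoting complex, lay at 2.72, 2.64 and 3.35 without DOX and 2.99, 2.78 and 2.21 with DOX. Both extremes of its 6 values were replicate 3 arrays, and the difference was -0.25 ± 0.27. Ube2c, the ubiquitin-conjugating enzyme of that complex, lay at 1.29, 1.25 and 2.08 without DOX and 1.59, 1.67 and 0.92 with DOX. It showed the same order, and a 2nd tested probe gave nearly the same difference (-0.15 ± 0.28, beside -0.14 ± 0.29). Pttg1, or securin, which keeps separase inactive, lay at 4.49, 5.36 and 4.99 without DOX and 5.14, 4.72 and 4.19 with DOX. Here no DOX replicate 2 was the highest array, and the groups overlapped (difference -0.26 ± 0.30). Espl1, separase itself, was at 0.17 ± 0.21.

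The chromosomal passenger complex corrects faulty attachments and guides cytokinesis. All 3 tested members had higher means, with a median difference of 0.15. Incenp, its scaffold, lay at 2.74, 2.64 and 3.10 without DOX and 3.34, 3.31 and 2.96 with DOX. The groups overlapped only through the replicate 3 arrays (difference 0.38 ± 0.17, limma, adjusted p = 0.290), and its 2nd probe gave 0.37 ± 0.18. Birc5, or survivin, lay at 2.86, 2.70 and 3.44 without DOX and 3.33, 3.33 and 2.73 with DOX. No DOX replicate 3 was its highest array, and the 3 tested probes of Birc5 gave differences between 0.10 and 0.13. Cdca8, or borealin, lay at 2.10, 2.07 and 2.76 without DOX and 2.72, 2.42 and 2.23 with DOX, a difference of 0.15 ± 0.23. Aurkb, the kinase of the complex, did not exceed background clearly on any of the 6 arrays.

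Among the centrosome and spindle kinases the differences were between -0.24 and 0.10. Aurka, which matures centrosomes, lay at 0.52, 0.31 and 0.55 without DOX and 0.83, 0.78 and 0.06 with DOX. DOX replicates 1 and 2 were its highest arrays and DOX replicate 3 its lowest (difference 0.10 ± 0.22). Plk1, the polo-like kinase, lay at 1.45, 1.12 and 1.74 without DOX and 1.68, 1.65 and 1.00 with DOX, with a difference of 0.01 ± 0.24. Nek2, which acts in centrosome separation, lay at -2.27, -2.22 and -1.80 without DOX and -2.33, -2.09 and -2.61 with DOX. Its difference was -0.24 ± 0.19, and the groups of all 3 kinases overlapped.

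The G2/M cyclins and their controllers had the lowest median of the 9 role groups, -0.24, with 3 means higher and 4 lower. Cdc25b, a phosphatase that activates Cdk1, lay at 1.75, 1.84 and 2.14 without DOX and 1.40, 1.41 and 1.25 with DOX. All DOX arrays were below, and the mean was 1.47-fold lower (log2 -0.55 ± 0.13, limma, adjusted p = 0.122). Cdc25c, a related phosphatase, lay at -3.11, -2.82 and -2.17 without DOX and -3.35, -2.99 and -3.96 with DOX. Its groups overlapped, and its difference of -0.74 ± 0.32 had an adjusted p of 0.283 (limma). Ccnb2, or cyclin B2, lay at 2.09, 2.07 and 2.63 without DOX and 1.71, 2.07 and 1.20 with DOX. DOX replicate 2 reached the level of 2 arrays without DOX, and the difference was -0.60 ± 0.26 (limma, adjusted p = 0.280). Cdk1 itself was higher by 0.61 ± 0.24 (limma, adjusted p = 0.252), Ccna2 was at 0.16 ± 0.20 and Ccnb1 at -0.24 ± 0.24. Cdk1 and its cyclin B partners thus had means on opposite sides of 0, none past the test. The other 2 tested probes of Ccnb1 were lower as well (-0.55 ± 0.29 and -0.30 ± 0.25). Without both replicate 3 arrays Ccnb1 was at 0.16, Ccnb2 at -0.19 and Cdk1 at 0.97. Other probes of Cdk1 were too dim to test. Foxm1, a transcription factor of G2/M genes, lay at -1.45, -1.50 and -0.80 without DOX and -0.89, -0.90 and -1.30 with DOX. No DOX replicate 3 was its highest array, and the difference was 0.22 ± 0.22.

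Of 6 tested centromere and kinetochore genes, 2 were above without overlap (background 12.8% of probes) and 2 below (background 12.7%). The median over the 6 was 0.22. Cenpa, the histone H3 variant that marks centromeres, lay at 0.46, 0.43 and 1.09 without DOX and -0.09, 0.20 and -0.66 with DOX. All DOX arrays were below, the mean was 1.80-fold lower (log2 -0.84 ± 0.27) and the adjusted p was 0.187 (limma). Cenpe, a kinetochore motor, lay at 1.50, 1.47 and 2.04 without DOX and 1.19, 1.19 and 0.58 with DOX. It was 1.61-fold lower (adjusted p = 0.200, limma), again with all DOX arrays below. In both genes the replicate 3 arrays were the highest and the lowest of the 6, and the groups stayed apart without them.

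The Ndc80 complex, the main microtubule coupler of the kinetochore, has 4 subunits, and all 4 had higher means with DOX. Spc25 lay at 1.88, 1.60 and 2.06 without DOX and 2.63, 2.57 and 2.27 with DOX. All DOX arrays were above, by a mean of 0.64 ± 0.16 (1.56-fold; limma, adjusted p = 0.129). Its partner Spc24 lay at -1.58, -1.62 and -1.03 without DOX and -0.69, -0.54 and -0.99 with DOX. There the replicate 3 arrays nearly met, and the difference was 0.67 ± 0.20 (limma, adjusted p = 0.166). Nuf2 lay at -2.94, -2.96 and -2.25 without DOX and -2.13, -2.14 and -3.43 with DOX. DOX replicate 3 was lower than all other arrays, so the difference was 0.15 ± 0.39, the widest interval of all members (width 1.89). Ndc80 was at 0.29 ± 0.22. Cenpf, a large kinetochore protein, was well above background on 0 arrays without DOX and 2 with DOX.

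**Figure D2:**
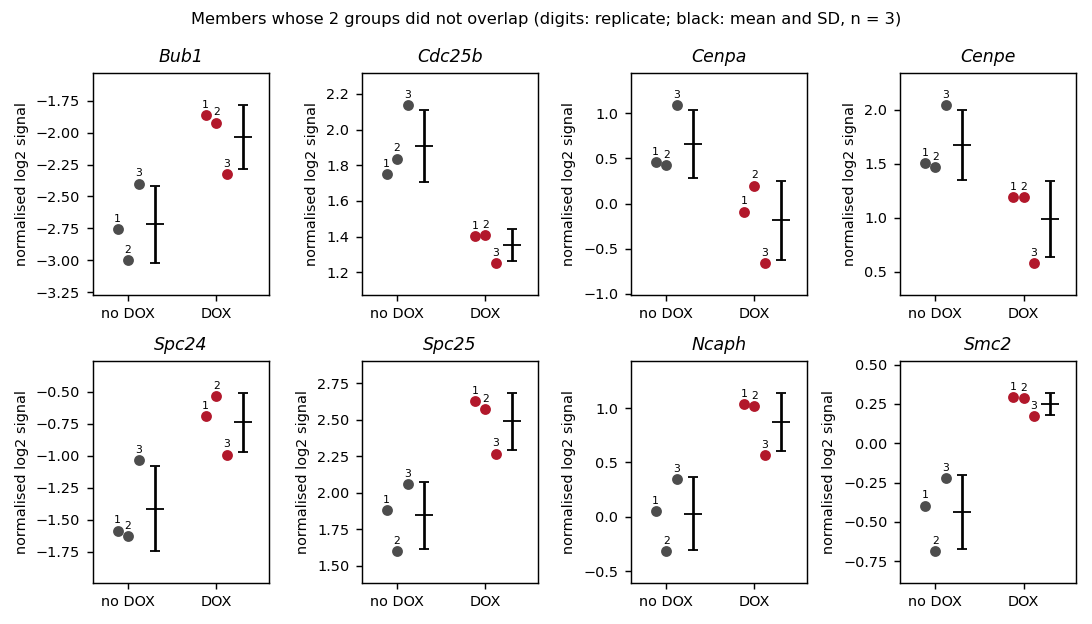
Normalised log2 signal of the 8 members whose groups did not overlap, one point per array, labelled by replicate number, with mean and SD (n = 3) in black. In the 5 genes above, the replicate 3 arrays are the closest pair between the groups, and in the 3 genes below they are the farthest.

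Mitotic kinesins move chromosomes and spindle poles. Their median difference was 0.02, with 3 means higher and 3 lower, and no gene had groups apart. Kif11, which pushes spindle poles apart, lay at -2.51, -2.68 and -2.08 without DOX and -2.16, -1.85 and -2.17 with DOX. No DOX replicate 3 lay above 2 of the DOX arrays, and the difference was 0.36 ± 0.19. Kif20a, a cytokinesis motor, lay at 0.10, 0.20 and 0.99 without DOX and 0.31, 0.49 and -0.25 with DOX. Kif2c, a microtubule-depolymerising kinesin of the centromere, lay at -3.26, -3.33 and -2.53 without DOX and -3.09, -2.83 and -3.75 with DOX. In both, no DOX replicate 3 was the highest of the 6 arrays and DOX replicate 3 the lowest (differences -0.24 ± 0.30 and -0.18 ± 0.31). Kif23, Kif4 and Kif18a were at 0.08 ± 0.20, -0.03 ± 0.24 and 0.07 ± 0.18.

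Genes of spindle assembly and cytokinesis spanned differences from -0.26 to 0.12, with a median of -0.12. Prc1, which bundles the central spindle, lay at 1.78, 1.67 and 2.30 without DOX and 2.24, 2.24 and 1.55 with DOX. Nusap1, a spindle microtubule binder, lay at -0.35, -0.46 and 0.25 without DOX and -0.40, -0.17 and -0.77 with DOX. The highest array of each was no DOX replicate 3 and the lowest DOX replicate 3 (differences 0.10 ± 0.25 and -0.26 ± 0.24). Hmmr, a spindle-associated hyaluronan receptor, varied least of the 6: 0.67, 0.55 and 0.87 without DOX and 0.64, 0.54 and 0.52 with DOX, a difference of -0.13 ± 0.12. The other members, Tpx2, Ect2 and Anln, were at -0.13 ± 0.24, 0.12 ± 0.19 and -0.11 ± 0.21.

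Chromosome structure genes had the highest median of the role groups, 0.38 over 5 genes. Smc2, a core ATPase of condensin, lay at -0.40, -0.69 and -0.22 without DOX and 0.29, 0.29 and 0.17 with DOX. The groups were well apart, with a 1.61-fold higher mean (log2 0.69 ± 0.14, limma, adjusted p = 0.0965). Ncaph, a condensin I subunit, lay at 0.05, -0.32 and 0.35 without DOX and 1.04, 1.02 and 0.57 with DOX. All DOX arrays were above, 1.80-fold on average (log2 0.85 ± 0.21, limma, adjusted p = 0.128). The other condensin core ATPase, Smc4, was at 0.13 ± 0.14, and Ncapg was well above background on 0 arrays. Top2a, the topoisomerase that untangles sister chromatids, lay at -0.20, -0.46 and 0.36 without DOX and 0.50, 0.55 and -0.20 with DOX. The groups overlapped, with no DOX replicate 3 above DOX replicate 3 (difference 0.38 ± 0.28). Mki67, the Ki-67 proliferation marker, lay at 2.65, 2.39 and 3.12 without DOX and 2.77, 2.87 and 2.44 with DOX. Its difference was -0.03 ± 0.22 (limma, adjusted p = 0.966), with a 95% interval from -0.54 to 0.49, and a 2nd probe gave -0.02 ± 0.18.

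In all role groups the spread between mice had 1 shape. No DOX replicate 3 was the highest of its group in 43 of the 44 members, all but Pttg1. DOX replicate 3 was the lowest of its group in 43 of 44, all but Kif18a. Both held at once in 42 members (95.5%), against 10.04% of all 30920 probes with a value on every array. By single probe, 53 of 57 had no DOX replicate 3 highest and 56 of 57 had DOX replicate 3 lowest, and among the 10 genes with several tested probes the probes of Mad2l1 alone disagreed on this. Members share the same 6 mice and are not independent of each other, so these counts describe the arrays.

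**Figure D3:**
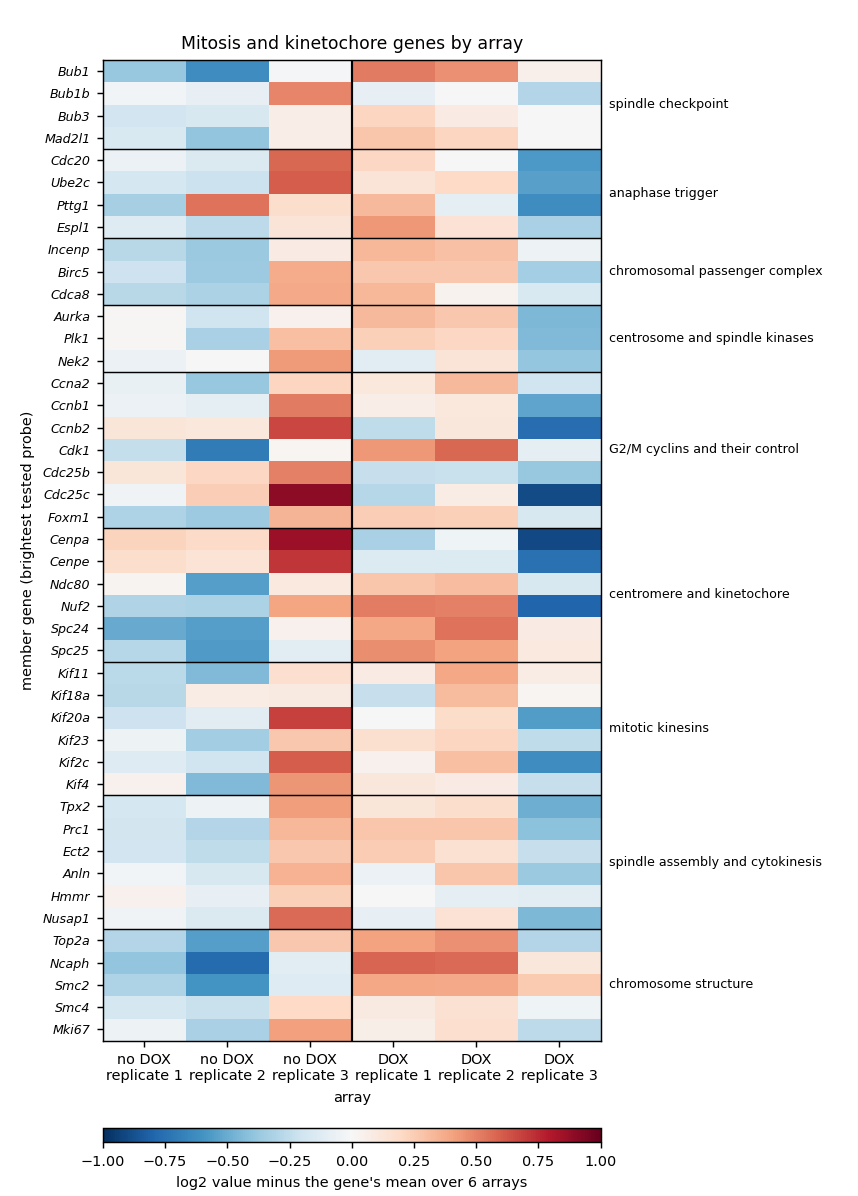
Normalised log2 signal of each tested member minus its own mean over the 6 arrays, by array and role group (red above, blue below; the colour scale ends at -1 and 1). The column of no DOX replicate 3 is above its group's other columns in 43 of 44 rows, and that of DOX replicate 3 below in 43 of 44.

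No DOX replicate 3 exceeded the mean of replicates 1 and 2 by a median of 0.51 (range 0.07 to 0.85, 44 of 44 above 0). DOX replicate 3 was below the mean of its partners by a median of -0.46 (range -1.30 to -0.02, 44 of 44 below 0). Over all probes those medians were 0.02 and -0.0004. Kif20a and Ube2c had the largest gaps without DOX (0.85 and 0.80), and Nuf2 the largest with DOX (-1.30). The smallest were those of Pttg1 without DOX (0.07) and Kif18a with DOX (-0.02). Replicates 1 and 2 lay close together: their median distance was 0.12 without DOX and 0.08 with DOX, beside 0.16 and 0.20 over all probes. The median SD within a group was 0.32 without DOX and 0.27 with DOX, beside 0.16 and 0.18 over all probes, so the members varied more between mice than most probes and replicate 3 carried that spread. Without that replicate the members' median SD was 0.09 without DOX and 0.06 with DOX.

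**Figure D4:**
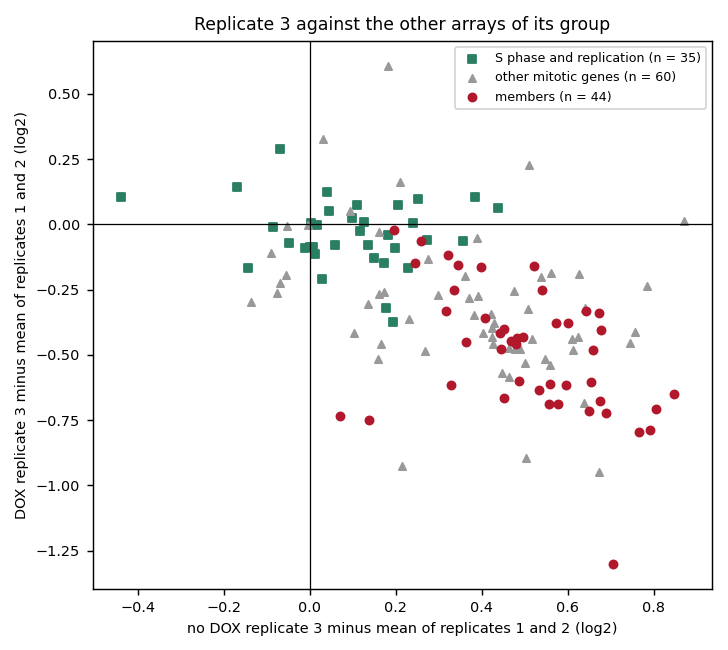
For each gene, replicate 3 minus the mean of replicates 1 and 2 in log2 signal, without DOX (horizontal axis) and with DOX (vertical axis), for 44 members (red), 60 other mitotic genes (grey) and 35 S phase genes (green). All members lie in the lower right part of the plot, while the S phase genes have median gaps of 0.11 and -0.04.

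With replicate 3 of both groups left out, 32 of 44 members had both DOX values above both values without DOX (background 25.2%), 3 were below (background 26.9%), and the median difference was 0.37. None passed the test (smallest adjusted p = 0.102, limma). Without those arrays the higher members were at 0.99 (Bub1), 0.99 (Spc24), 0.86 (Spc25), 1.16 (Ncaph) and 0.83 (Smc2). The arrays were picked after the members' values had been seen, so those counts are a description of 4 mice and are no test of DOX. The signs of 13 members turned positive in that setting, among them Mki67 (0.30) and Ube2c (0.36), while Cenpa (-0.39), Cenpe (-0.29), Cdc25b (-0.39), Cdc25c (-0.21), Ccnb2 (-0.19) and Hmmr (-0.03) kept a lower mean.

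The same order of arrays was also counted in genes outside the 48. Among 60 tested genes of a list of 62 other mitotic genes, 44 (73.3%) had no DOX replicate 3 highest and DOX replicate 3 lowest. In the S phase and replication list it was 8 of 35 (22.9%), and over all probes, as above, 10.04%. Whether these shares differ was not tested. Of the other mitotic genes 1 passed the test and had risen, Cenpk, a kinetochore scaffold gene, which lay at -0.59, -0.87 and -0.57 without DOX and 0.27, 0.30 and 0.25 with DOX (0.95 ± 0.12, limma, adjusted p = 0.0406). That call was lost when any 1 of the 6 arrays was left out, with no filter on dim probes (adjusted p = 0.121, limma), with the replicate block (adjusted p = 0.142, limma) and when the probes of a gene were averaged. Next by p was Cdca5, or sororin, which protects cohesin, at 1.13 ± 0.16 (limma, adjusted p = 0.0553). The median over the list was 0.18. Without overlap, 16 of the 60 genes lay above (background 12.8% of probes) and 3 below (background 12.7%).

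Genes of S phase and replication were higher with DOX. Of 35 tested, 19 rose and 0 fell, the median was 0.93, and 34 lay above without overlap (background 12.8% of probes). The count of 19 was between 0 and 10 when 1 array was left out, in each of the 6 cases, and 0 with no filter on dim probes, with the replicate block and without both replicate 3 arrays, while the median was between 0.73 and 0.94 over all alternatives. The array means of the S phase list, after each gene's own mean was subtracted, were -0.45, -0.61 and -0.44 without DOX and 0.57, 0.46 and 0.48 with DOX. Those of the 44 members were -0.14, -0.24 and 0.32 without DOX and 0.16, 0.21 and -0.30 with DOX. In the S phase list, replicate 3 stood with its group, and in the members it stood on the other side of 0. Whether the 2 lists differ was not tested.

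Among 14 MuvB, B-Myb, DREAM and NF-Y subunit genes, which regulate mitotic genes, 12 had higher means with DOX and 2 lower. Without overlap, 6 lay above (background 12.8% of probes) and 0 below (background 12.7%). Of these 14, 1 passed: Mybl2, which encodes B-Myb, rose by 1.56 ± 0.16 (limma, adjusted p = 0.0241), from -0.15, -0.22 and 0.10 without DOX to 1.74, 1.40 and 1.26 with DOX. That call was lost when any 1 of the 6 arrays was left out, with no filter on dim probes (adjusted p = 0.0891, limma) and with the replicate block (adjusted p = 0.138, limma), although all DOX arrays lay above. The median of that list was 0.24, and the NF-Y subunit gene Nfya followed at 0.68 ± 0.11 (limma, adjusted p = 0.0719). None of 14 tested genes of the anaphase-promoting complex list passed, and their median was -0.01. Their extremes were small, as for Cdc26 (0.20 ± 0.10) and Cdc27 (-0.18 ± 0.11).

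None of 13 tested G2/M inhibitors and checkpoint genes passed, with a median of 0.03. Wee1, the kinase that holds Cdk1 inactive, lay at -1.07, -1.07 and -0.84 without DOX and -0.25, -0.43 and 0.05 with DOX (0.79 ± 0.15, limma, adjusted p = 0.0886). Pkmyt1, a related inhibitor of Cdk1, was at 0.69 ± 0.17 (limma, adjusted p = 0.118). Both lay above without overlap, on the opposite side from the Cdk1 activator Cdc25b, and none of the 3 passed. Over the 13 genes, 8 means were higher and 5 lower. Without overlap, 3 lay above (background 12.8% of probes), the other being Gadd45g (0.65 ± 0.20). Below was 1 (background 12.7%), Gadd45a (-0.58 ± 0.15). None of 10 cohesin genes passed, with a median of 0.04. Esco2, which acetylates cohesin in S phase, was the highest at 1.56 ± 0.32 (limma, adjusted p = 0.0954), and Wapl, which releases cohesin, was at 0.31 ± 0.11.

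Markers of other cell types also varied between the arrays. The salivary gland list had the largest median difference of the cell type lists, 2.19, with array means of 0.11, -2.39 and -0.07 without DOX and 0.59, 1.11 and 0.64 with DOX. Of its 10 markers 7 were well above background on all arrays and 2 on none, and the summed linear level was 1425 to 1562 without DOX and 1693 to 1974 with DOX. Such a sum, here and in the lists below, is weighted to the brightest probes and is no level of a cell type. In this list the brightest was Muc5b (mean 10.34 without DOX and 10.06 with DOX). Of the 8 tested, none passed, and 5 lay above without overlap (12.8% of all probes did). Among these 5 were the secreted proteins Bpifa2 (6.51 ± 1.64) and Car6 (4.16 ± 0.96) and the secretory cell factor Bhlha15 (1.82 ± 0.28, limma, adjusted p = 0.0649). The other 3 had lower means with DOX and overlapping groups: Klk1 (-4.22 ± 1.92), Aqp5 (-0.98 ± 0.43) and Muc5b (-0.28 ± 0.17). No DOX replicate 2, not replicate 3, was the lowest array of that list. Of all cell type markers 1 passed: Cd8a, a T cell coreceptor, fell. It lay at -3.80, -3.99 and -3.98 without DOX, while 0 of the DOX arrays exceeded background clearly (at least 1.69-fold lower, taking the dimmest probe well above background on each DOX array as its level; limma, adjusted p = 0.0241). That call was lost in 5 of 6 cases when 1 array was left out, with no filter on dim probes and with the replicate block.

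Basal keratinocyte markers, the layer in which tongue epithelium divides, had array means of 0.07, 0.06 and 0.33 without DOX and -0.04, -0.28 and -0.14 with DOX. All 8 were well above background on every array, and their summed linear level was 619 to 838 without DOX and 631 to 795 with DOX. None passed (median -0.35), and 5 of 8 lay below without overlap (12.7% of all probes did). Means were lower with DOX in 6 and higher in 2, Krt14 (0.43 ± 0.35) and Krt5 (0.06 ± 0.15). The highest array of that list, no DOX replicate 3, was also the highest of the mitotic members. Its lowest array, DOX replicate 2, was instead the highest DOX array of the members (array mean 0.21). Macrophage markers had means of -0.18, -0.31 and -0.08 without DOX and 0.11, 0.51 and -0.04 with DOX. As in the members, replicate 3 of the macrophage list was the highest without DOX and the lowest with DOX. All 8 of its markers were well above background, with sums of 19.1 to 20.8 and 20.4 to 28.7. Neutrophil markers gave -0.23, -0.73 and 0.11 without DOX and 1.33, 0.15 and -0.62 with DOX, again with that order. Of 8, 5 were well above background on all arrays and 1 on none, and the sums were 76.9 to 200.8 and 131 to 1244. Skeletal muscle markers, all 10 detected, had means of -0.09, 0.35 and -0.42 without DOX and 0.05, 0.27 and -0.16 with DOX. Their replicate 3 was the lowest of each group, with sums of 2542 to 3418 and 2672 to 3447. The share of probes well above background was also lowest on replicate 3 of each group (56.8% without DOX and 56.0% with DOX, beside 57.4% to 58.3% on the other arrays). The part of these markers, or of that share, in the members' values was not tested.

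**Figure D5:**
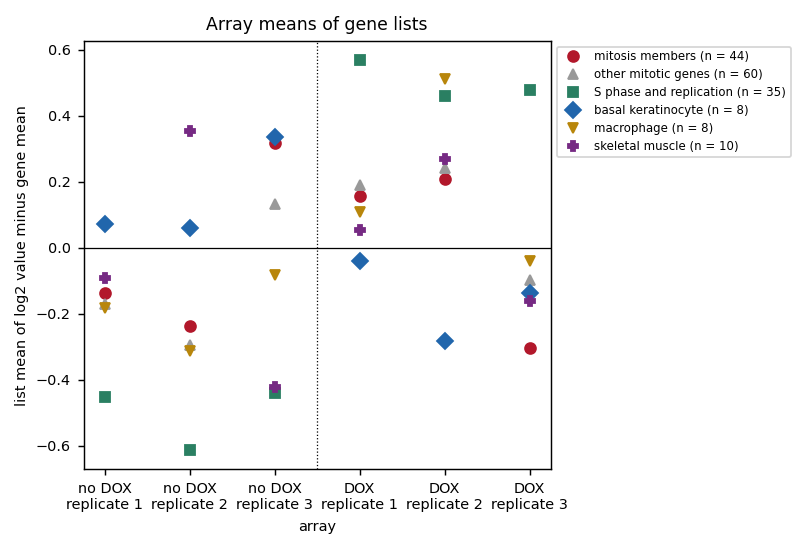
Array means of 6 gene lists after each gene's own mean over the 6 arrays was subtracted, in log2 units, without error bars since each point is 1 array. The 44 mitotic members (red) lie above 0 in no DOX replicate 3 and below 0 in DOX replicate 3, while S phase genes (green) lie below 0 in all arrays without DOX and above 0 in all with DOX.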

How the data were processed

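Tongue RNA of 6 mice (3 no DOX, 3 DOX) was labelled with Cy3 and hybridised to 1-colour Agilent arrays, per the labels' protocols. Spot intensity on a linear scale was deposited, with background subtracted in the processed signal. Per the file headers it came from Agilent Feature Extraction 11.5.1.1. The deposited value table holds the same processed intensity multiplied by 1 factor per array (3.70 to 3.99).

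Spots of a probe were averaged as log2 processed signal, without outlier spots (146 to 195 of 59305 per array). From each array its 75th percentile, taken over probes other than controls, was subtracted. Probes were named by accession through a RefSeq gene table of GRCm38.p6 (28331 of 55681 matched 1 symbol). A probe was tested if it was well above background throughout 1 group or both. The test was that of limma 3.58.1 under R 4.3.3 (lmFit and eBayes, two-sided), adjusted over 30934 probes by Benjamini-Hochberg with a threshold of 0.05, and the brightest tested probe stood for a gene. The ± after a difference is its SE. All arrays lay on 1 slide with 1 scan day. The labels describe separate mice, and same-numbered arrays were not paired (correlations of deviations -0.11, -0.01 and 0.01).

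Members and lists were chosen with earlier results of these data known. Values on every array are given, in each role group, for the member with the smallest p and the 2 with the widest range within a group. The 3 largest differences in each direction, Mki67, Foxm1 and Top2a, and members whose probes differed in sign (0) were added, and from other lists the 2 genes with the smallest p. Spc24, the other members given by their difference alone, and those singled out for their rank or probes (Mad2l1, Ccnb1, Cdk1, Kif18a) were named after their values were seen. So were the salivary gland, T cell and basal keratinocyte markers, Gadd45a and Gadd45g. The script was checked on simulated arrays. Other settings tried were normexp background correction, array median and quantile scaling, the deposited value table, 2 other filters, trend and robust variance, a replicate block, the mean of a gene's probes and each array left out. Leaving out replicate 3 of both groups was added after the data were seen. Protein sequences were not used here.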

Additional observations from a re-analysis of the deposited data

How the results depend on the processing

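No member passed under any alternative tried. The count of probes called higher and lower with DOX was 86 and 38. It was 156 and 68 with trend and robust settings, 184 and 100 with normexp background correction (offset 50, run on the median signal), 0 and 1 with no filter on dim probes, 0 and 0 with the replicate block, and 1 and 0 without replicate 3 of both groups. Leaving out 1 array gave 0 to 42 higher and 0 to 18 lower. With the replicate block, 0 members passed (smallest adjusted p = 0.195, limma), as without it, and the numbers did not pair the arrays. The members above without overlap numbered 5 to 14 when 1 array was left out (15.5% to 18.8% of all probes, against 12.8% with 6 arrays) and 32 without both replicate 3 arrays (25.2% of all probes). Those below numbered 3 to 7 with 1 array left out (16.4% to 21.0% of all probes) and 3 without both (26.9%). The median SD within a group was 0.056 to 0.35 (DOX) and 0.088 to 0.43 (no DOX) when 1 array was left out, and 0.056 and 0.088 without both. Plk1 turned to -0.022 with normexp. The size of a difference also depended on that correction. It was nearer 0 for Bub1 (0.31), Cdc25c (-0.31), Cdk1 (0.36) and Ndc80 (0.14), and farther from 0 for Bub3 (0.22). Without replicate 3 of both groups, the difference turned positive for Anln (0.20), Bub1b (0.0093), Ccnb1 (0.16), Cdc20 (0.20), Kif20a (0.26), Kif2c (0.34), Kif4 (0.30), Mki67 (0.30), Nek2 (0.040), Nusap1 (0.12), Pttg1 (0.0064), Tpx2 (0.26) and Ube2c (0.36). With 1 array left out, the difference took both signs for Anln (-0.27 to 0.053), Aurka (-0.042 to 0.35), Birc5 (-0.018 to 0.35), Espl1 (-0.0032 to 0.38), Kif18a (-0.065 to 0.21), Kif20a (-0.41 to 0.039), Kif23 (-0.072 to 0.24), Kif2c (-0.38 to 0.081), Kif4 (-0.25 to 0.19), Mki67 (-0.19 to 0.17), Nuf2 (-0.067 to 0.58), Plk1 (-0.15 to 0.23), Prc1 (-0.026 to 0.33), Tpx2 (-0.25 to 0.082) and Ube2c (-0.29 to 0.12). The cause was not tested. Of 704 member differences under the alternatives, 661 kept their sign and 43 did not. That count is no measure of stability. Trend and robust variance, the other filters and the replicate block leave the difference itself unchanged, so its sign could not turn there. Signal over background limits Ttk, Aurkb, Cenpf and Ncapg, for which no difference is given.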

Other observations

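In each of the 9 role groups replicate 3 lay above its partners without DOX and below them with DOX, by the median over the tested members of replicate 3 minus the mean of replicates 1 and 2. For the G2/M cyclin and control genes the medians were 0.56 without DOX and -0.60 with DOX, and for the anaphase trigger genes 0.50 and -0.69. The chromosomal passenger complex had 0.65 and -0.36, chromosome structure 0.48 and -0.38, and the spindle checkpoint 0.41 and -0.25. Whether role groups differ in these gaps was not tested.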
